A study of Mus musculus with 8 samples.

Results

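The genes described here are 9 transcription factors that set or mark macrophage identity: Spi1, Cebpa, Irf8, Cebpb, Klf4, Maf, Mef2c, Mitf and Nr1h3. They were listed by symbol, with no threshold on a measured value, and all 9 were found among the 53342 genes of the deposited tables. A total of 8 of the 9 passed the filter on low counts and entered the test across 5256 genes. Klf4 fell below the filter, with 4 to 15 counts per library.

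Macrophages came from the infarcted hearts of wild-type C57BL/6 mice, 8 weeks old, 3 days after myocardial infarction. Cells were sorted by the surface antigen Ly6C into Ly6Clo and Ly6Chi macrophages, and each subset was kept for 24 hours in serum-containing medium with interleukin 21 (IL-21) at 100 ng/mL or without it. The 4 groups, Ly6Clo with IL-21, Ly6Clo without IL-21, Ly6Chi with IL-21 and Ly6Chi without IL-21, had 2 libraries each, numbered 1 and 2 in the sample titles. The labels do not say whether the libraries of a group came from separate mice or cultures, so p-values measure the spread among these libraries alone, and that spread may be technical. IL-21 is a T cell cytokine whose receptor signals mainly through the transcription factor STAT3.

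PU.1 (encoded by Spi1), the C/EBP factors and IRF8 open and occupy the enhancers that make a cell myeloid, and they act together on many of the same enhancers. A second layer, which includes MAF, LXRalpha (encoded by Nr1h3), MITF and MEF2C, shapes what a mature macrophage does, such as clearing dead cells, handling cholesterol or filling lysosomes. C/EBPbeta and KLF4 respond to inflammatory and type 2 cytokine signals in mouse macrophages. After an infarct, Ly6Chi monocytes enter the heart first and give rise to macrophages with less Ly6C.

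Libraries were 3′ end libraries, which read each messenger RNA near its end, so a level in CPM (counts scaled to library size) is compared between libraries and not between genes. Deposited totals were 224329 to 483593 counts per library over 12102 to 14445 genes above 0. On these totals 3 counts correspond to 6.20 to 13.4 CPM. Levels in the text are on TMM-scaled totals of the genes kept by the filter, where a count weighs more. For example, 4 counts of Klf4 were 19.9 CPM in library 2 of Ly6Chi with IL-21. Of 8 macrophage markers, 7 had counts in every group (summed level 7410 to 11940 CPM per library), and Itgam, which encodes CD11b, was at 0 in all 8 libraries. Markers of Ly6Chi monocytes summed to 318 to 499.6 CPM in Ly6Clo with IL-21 and 233 to 278 CPM in Ly6Clo without it, against 1087 to 1265 CPM in Ly6Chi with IL-21 and 922 to 942 CPM in Ly6Chi without it, which follows the sort labels. Markers of B cells, mast cells and T and NK cells summed to 5 counts or fewer in every library.

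Promoter windows of 4 factors are shown for the reasons given here, and the comparisons that follow do not use the windows. Cebpb and Cebpa are related genes whose ratio is described, and Mef2c had the largest fitted log2 fold change with IL-21 among the 8 factors tested, averaged and in Ly6Chi. Irf8 is shown because it and Mef2c held the only matches, among 13 windows of 7 members, to TTCNNNGAA, the spaced palindrome bound by STAT dimers. Each window runs from 250 bases before a RefSeq transcription start to 50 bases after it on GRCm38.p6, 5′ to 3′ along the gene. Capitals mark matches, on either strand, to TTCNNNGAA (8.3% of all 32851 promoter windows hold one), to TATAAA (13.6%), to GAGGAA, a core recognised by PU.1 (28.3%), and to the E-box CACGTG (7.15%), of which these 4 windows hold none.
Cebpb: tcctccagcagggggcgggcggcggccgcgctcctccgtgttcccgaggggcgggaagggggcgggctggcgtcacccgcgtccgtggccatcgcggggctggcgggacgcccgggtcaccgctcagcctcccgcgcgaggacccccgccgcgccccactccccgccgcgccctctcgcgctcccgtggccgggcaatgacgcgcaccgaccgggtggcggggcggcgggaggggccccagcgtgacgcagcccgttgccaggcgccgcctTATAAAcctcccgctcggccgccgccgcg
Cebpa: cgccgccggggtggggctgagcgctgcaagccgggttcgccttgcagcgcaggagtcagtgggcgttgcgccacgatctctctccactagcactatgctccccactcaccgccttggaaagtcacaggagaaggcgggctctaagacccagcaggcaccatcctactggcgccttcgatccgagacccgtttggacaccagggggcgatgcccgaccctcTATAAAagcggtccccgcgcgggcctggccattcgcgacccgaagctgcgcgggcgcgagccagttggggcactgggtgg
Irf8: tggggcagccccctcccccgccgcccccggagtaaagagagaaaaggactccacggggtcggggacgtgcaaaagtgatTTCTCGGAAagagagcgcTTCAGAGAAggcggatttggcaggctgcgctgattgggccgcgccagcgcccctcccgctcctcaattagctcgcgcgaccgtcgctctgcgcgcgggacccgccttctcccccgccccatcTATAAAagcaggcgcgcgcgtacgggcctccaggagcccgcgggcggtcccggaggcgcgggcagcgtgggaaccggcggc
Mef2c: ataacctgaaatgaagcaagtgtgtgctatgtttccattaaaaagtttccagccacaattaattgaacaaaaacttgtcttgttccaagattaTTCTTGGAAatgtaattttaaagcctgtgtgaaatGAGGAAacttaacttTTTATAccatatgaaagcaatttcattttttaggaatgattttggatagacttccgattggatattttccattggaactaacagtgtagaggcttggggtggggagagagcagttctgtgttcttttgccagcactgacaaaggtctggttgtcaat

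The Cebpb window is chr2:167688665-167688964 on the plus strand, and its one match is TATAAA, which begins 21 bases after the start. The Cebpa window is chr7:35119043-35119342 on the plus strand, with TATAAA beginning 30 bases before the start. The first of 2 Irf8 windows, chr8:120736108-120736407 on the plus strand, holds TTCTCGGAA 171 bases and TTCAGAGAA 153 bases before the start, and TATAAA 31 bases before it. The second Irf8 window, not shown, holds no match to any of these motifs. The first of 3 Mef2c windows, chr13:83503784-83504083 on the plus strand, holds TTCTTGGAA 157 bases before the start. It also holds GAGGAA 122 bases before the start and a reverse-strand match to the TATA motif 107 bases before it. A match says only that these letters are in the window, and the libraries do not measure binding.

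**Figure D1:**
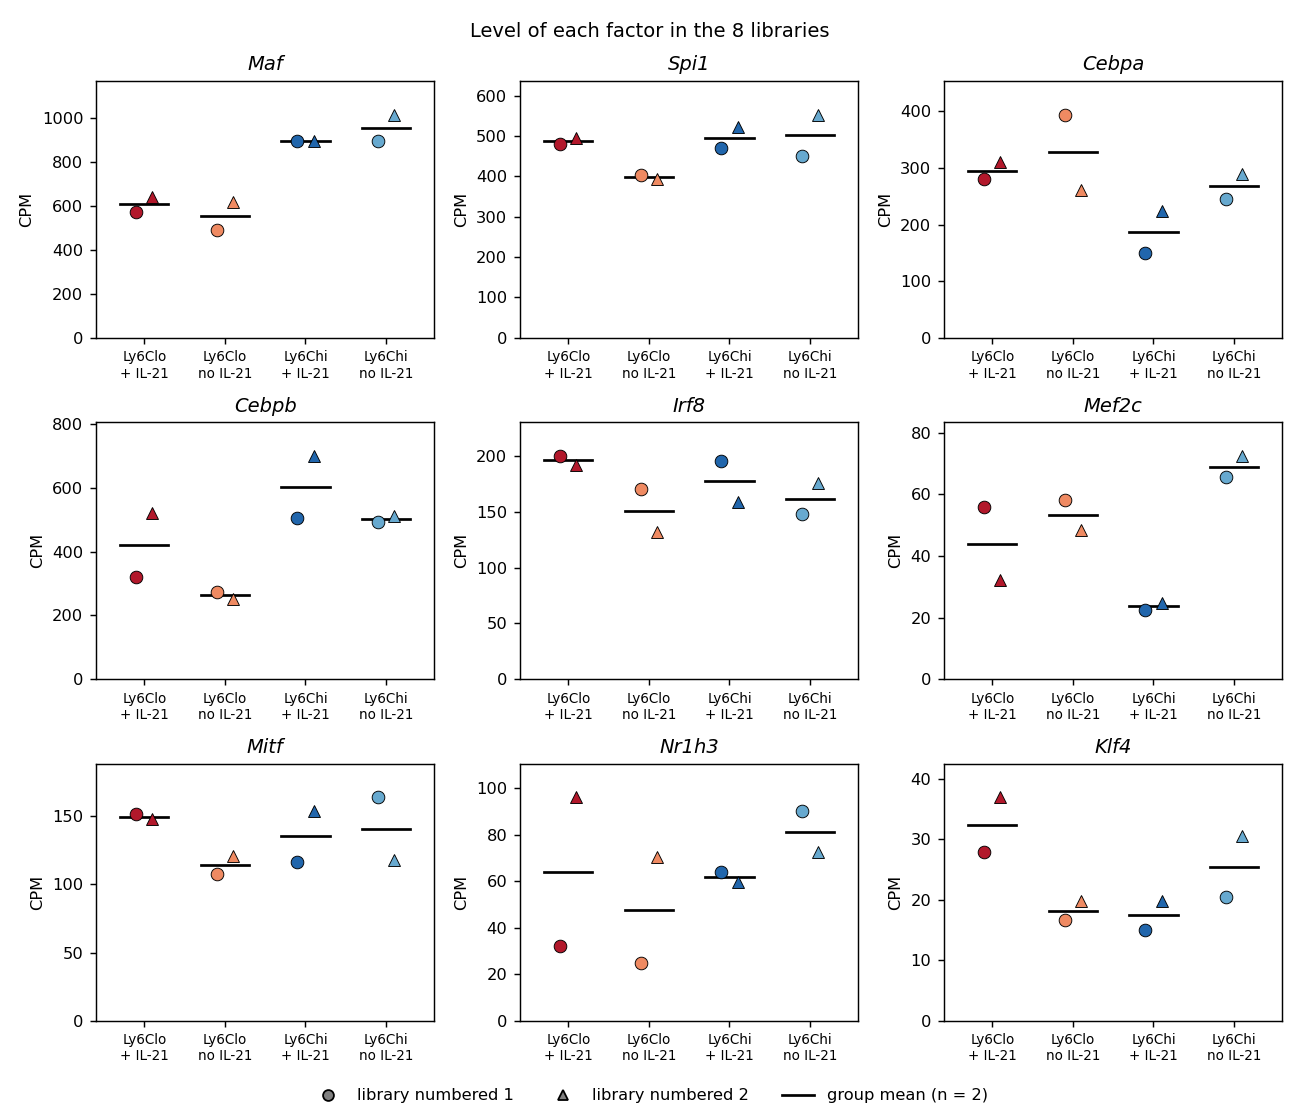
Level of each of the 9 factors in the 8 libraries, in CPM on TMM-scaled totals, with a separate axis from 0 for each gene. Circles are libraries numbered 1, triangles libraries numbered 2 and bars group means (n = 2). Maf was at 490 to 641 CPM in the 4 Ly6Clo libraries, below 896 to 1018 CPM in the 4 Ly6Chi libraries, and Mef2c was at 22.6 and 24.8 CPM in Ly6Chi with IL-21.

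The 1st comparison asked how the factors responded to IL-21. By the quasi-likelihood test of edgeR, adjusted by Benjamini and Hochberg's method, 0 of the 8 factors tested passed an adjusted p of 0.05 for IL-21 averaged over both subsets, where 0.171% of all genes passed. Of these 8, 2 (Cebpb and Mef2c) had an unadjusted p under 0.05 (5.33% of all genes), and DESeq2 and limma-voom each called 0 members. In the averaged comparison 6 of 8 had a log2 fold change above 0, with a median of 0.08, against -0.01 over all genes tested. The 4 libraries with IL-21 and the 4 without it overlapped for all 8 factors, where 3.71% of all genes did not overlap. In Ly6Chi alone 0 of 8 passed (0.019% of all genes), 1 had an unadjusted p under 0.05 (3.52% of all genes) and the median was -0.08, against 0.00 over all genes. In Ly6Clo alone 0 of 8 passed (0.133% of all genes), 1 had an unadjusted p under 0.05 (3.52% of all genes) and the median was 0.34, against -0.01 over all genes. DESeq2 and limma-voom called 0 members within either subset too. With the replicate number as a block in the edgeR fit, 0 of 8 passed as well, while 60 of all genes passed in the averaged comparison, against 9 with no block, 14 against 1 in Ly6Chi and 29 against 7 in Ly6Clo. These are bulk samples, in which fewer cells of a type and less RNA per cell cannot be told apart.

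The 2nd comparison set Ly6Clo against Ly6Chi. Averaged over stimulation, 0 of the 8 factors passed the same test (0.19% of all genes) and 3, Maf, Cebpb and Cebpa, had an unadjusted p under 0.05 (7.78% of all genes). The median log2 fold change was -0.12, against 0.00 over all genes tested. Without IL-21, 0 of 8 passed (0.0381% of all genes), 2 had an unadjusted p under 0.05 (4.53% of all genes) and the median was -0.37, against 0.00. With IL-21, 0 of 8 passed (0.019% of all genes), 2 had an unadjusted p under 0.05 (5.27% of all genes) and the median was 0.14, against -0.01. DESeq2 and limma-voom called 0 members in each of these too. A block for the number, a term that takes up what same-numbered libraries share, gave 2 calls of 8 in edgeR, Maf and Cebpb, averaged and without IL-21, and 0 of 8 with IL-21. Over all genes the block called 132 against 10 with no block in the averaged comparison, 31 against 2 without IL-21 and 41 against 1 with it. Ly6Clo and Ly6Chi did not overlap for 5 of 8 factors without IL-21 (33.9% of all genes) and for 3 of 8 with IL-21 (33% of all genes).

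**Figure D2:**
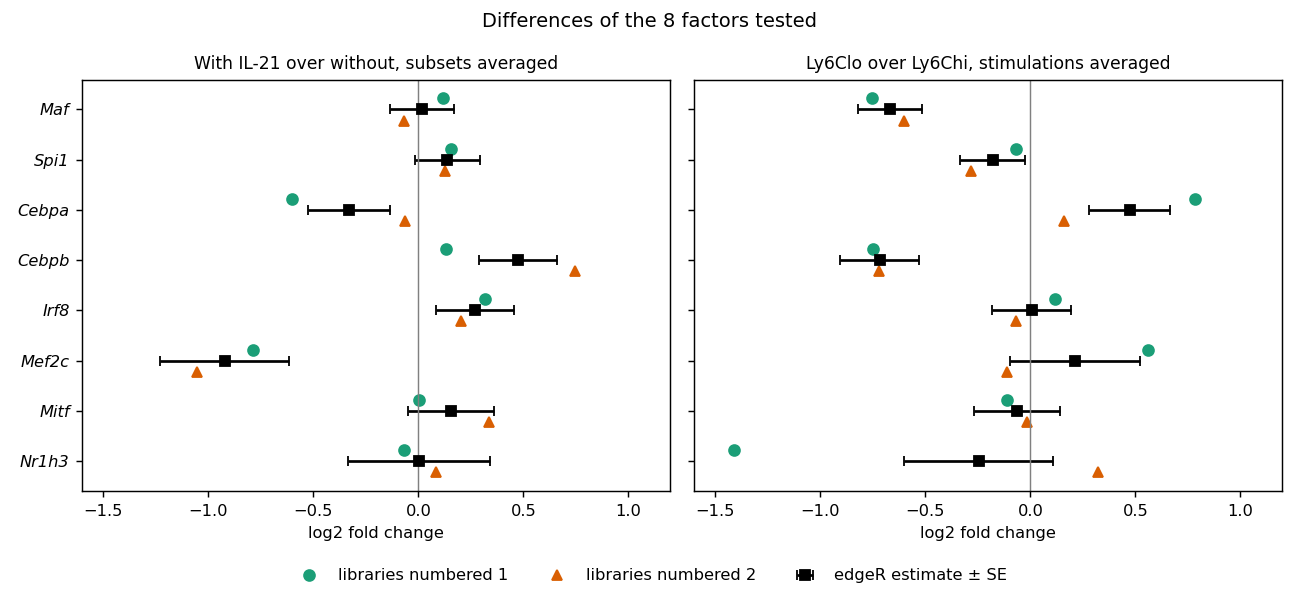
Log2 fold change of the 8 factors tested, with IL-21 over without it averaged over the subsets (left) and Ly6Clo over Ly6Chi averaged over stimulation (right). Squares with bars are edgeR estimates ± SE over all 8 libraries, circles the same difference among libraries numbered 1 and triangles among those numbered 2. Maf, Cebpb, Spi1 and Mitf lie below 0 on the right in both numbers, and Mef2c and Cebpa lie below 0 on the left in both. The sign was the same in both numbers for 6 of 8 factors on the left and 5 of 8 on the right.

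Spi1, on chromosome 2 at 91082390 to 91115756 (GRCm38, plus strand), encodes PU.1, the factor that all macrophages need from their earliest precursors on. In Ly6Clo macrophages it had 479.7 and 495 CPM with IL-21, against 403 and 393 CPM without IL-21. In Ly6Chi macrophages it had 471 and 521 CPM with IL-21, against 451 and 553 CPM without it. Both Ly6Clo libraries without IL-21 were lower than all 6 others, and the remaining 3 groups overlapped each other. For this and the like group orders below, the share of all genes with such an order was not counted. The log2 fold change with IL-21 was 0.29 ± 0.22 (SE, n = 2 each) in Ly6Clo, with 0.25 in libraries numbered 1 and 0.33 in those numbered 2, and -0.02 ± 0.22 in Ly6Chi. Neither passed in edgeR (adjusted p = 0.9999 in Ly6Clo and 1 in Ly6Chi). Over the 8 libraries the SD of the log2 level of Spi1 was 0.17, the smallest among the 4 members with a mean of 50 counts or more, against 0.384 for Maf, 0.402 for Cebpa and 0.522 for Cebpb.

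Cebpa, on chromosome 7 at 35119293 to 35121928 (plus strand), encodes C/EBPalpha, which progenitors need in order to enter the granulocyte and monocyte lineage. Ly6Clo macrophages had 279.8 and 310.5 CPM with IL-21, against 394.5 and 261 CPM without IL-21. Ly6Chi macrophages had 151 and 223 CPM with IL-21, against 246 and 289.8 CPM without it. Ly6Chi with IL-21 was the lowest group and did not overlap with any other, while the other 3 groups overlapped in their order of means. The fitted log2 fold change with IL-21 was -0.53 ± 0.29 (SE, n = 2 each) in Ly6Chi, with -0.71 in libraries numbered 1 and -0.37 in those numbered 2, and -0.13 ± 0.26 in Ly6Clo, and neither passed in edgeR (adjusted p = 1 and 0.9999). Ly6Clo over Ly6Chi was 0.47 ± 0.19 averaged over stimulation (SE, n = 4 each, edgeR adjusted p = 0.548). By number it was 0.79 for libraries 1 and 0.16 for libraries 2, so its size varied with the number.

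Cebpb, on chromosome 2 at 167688915 to 167690418 (plus strand), encodes C/EBPbeta, which is induced by inflammatory cytokines and drives Arg1 in mouse macrophages. Its level in Ly6Clo macrophages was 319.8 and 520 CPM with IL-21, against 274 and 252 CPM without IL-21. Its level in Ly6Chi macrophages was 504.5 and 700.1 CPM with IL-21, against 492 and 511 CPM without it. Both Ly6Clo libraries without IL-21 were below all others, and the 2nd library was the higher one in each IL-21 group. All 4 differences between same-numbered libraries with and without IL-21 were above 0, ranging from 0.04 to 1.04 on the log2(CPM + 0.5) scale. How many of all genes have 4 differences of the same sign was not counted, here and for the like statements below. The averaged log2 fold change was 0.47 ± 0.19 (SE, n = 4 each, edgeR adjusted p = 0.803), with 0.13 in libraries numbered 1 and 0.75 in those numbered 2.

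Between the subsets, averaged over stimulation, the Ly6Clo level of Cebpb was 0.608 times the Ly6Chi level, a log2 fold change of -0.72 ± 0.19 (SE, n = 4 each, edgeR adjusted p = 0.203). All 4 same-number differences were below 0, from -1.02 to -0.43, and the values by number were -0.75 and -0.72. With IL-21 the fold change was -0.50 ± 0.26, and without it -0.93 ± 0.27 (SE, n = 2 each, edgeR adjusted p = 0.929 without IL-21). With no filter on low counts the averaged difference of Cebpb passed (-0.70, edgeR adjusted p = 0.0364). So did those of the list genes Adgre1, Lpl, Atp6v0d2 and Gas6, which did not pass in the main fit. Over 15 alternative settings the adjusted p of Cebpb ranged from 0.00179 to 0.575, with 2 of 15 under 0.05. The other of these was the replicate block, with -0.73 ± 0.14 averaged (edgeR adjusted p = 0.00179), and without IL-21 the block gave -0.96 ± 0.20 (edgeR adjusted p = 0.0174). Cebpb overlaps Tmem189 on the other strand, which had 12.8 to 44.9 counts per library and does not share its 3′ end.

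The balance between both C/EBP genes was ordered by group, with narrow gaps in places. The ratio of Cebpb counts to Cebpa counts was 1.14 and 1.67 in Ly6Clo with IL-21, against 0.695 and 0.966 in Ly6Clo without it. In Ly6Chi it was 3.35 and 3.13 with IL-21, against 2 and 1.76 without it. The 4 groups did not overlap, and all 4 Ly6Clo ratios were below all 4 Ly6Chi ratios. In each subset both ratios with IL-21 were above both without it. The closest ratios of different groups were 1.67 (211 over 126 counts, Ly6Clo with IL-21) and 1.76 (134 over 76 counts, Ly6Chi without it). Counting error was not set against these gaps, and how many other gene pairs separate the groups was not counted. The ratio was computed after the levels of both genes had been seen, so it is given as a description with no test.

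**Figure D3:**
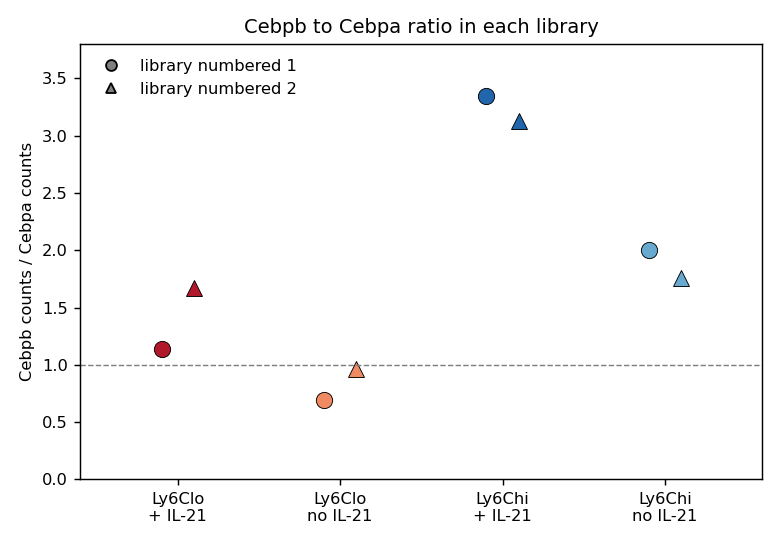
Cebpb counts divided by Cebpa counts in each library, with the dashed line at a ratio of 1. Circles are libraries numbered 1 and triangles those numbered 2. Ly6Chi libraries lie between 1.76 and 3.35, above all Ly6Clo libraries, and in both subsets the libraries with IL-21 lie above those without.

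Irf8, on chromosome 8 at 120736358 to 120756694 (plus strand), encodes an interferon regulatory factor that monocytes and dendritic cells need for their development. In Ly6Clo cells the libraries had 199.9 and 192 CPM with IL-21, against 170.2 and 132 CPM without IL-21. In Ly6Chi cells the libraries had 196 and 159 CPM with IL-21, against 148 and 175 CPM without it. The groups with and without IL-21 did not overlap in Ly6Clo and overlapped in Ly6Chi. The averaged log2 fold change with IL-21 was 0.27 ± 0.19 (SE, n = 4 each), with 0.32 and 0.20 in libraries numbered 1 and 2, and it did not pass in edgeR (adjusted p = 0.9997). Irf8 shares its 3′ end with Gm20388 on the same strand, which had 10.0 to 26.5 counts per library, so reads of this end may have been split between them.

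Klf4, on chromosome 4 at 55527143 to 55532466 (minus strand), encodes a Krüppel-like factor that promotes monocyte differentiation and, with STAT6, alternative activation in mouse macrophages. In Ly6Clo macrophages it had 28.0 and 37.0 CPM with IL-21, against 16.6 and 19.8 CPM without IL-21. In Ly6Chi macrophages it had 15.1 and 19.9 CPM with IL-21, against 20.5 and 30.5 CPM without it. The groups with and without IL-21 did not overlap in either subset, and they were ordered oppositely. Of all genes tested, 29.5% did not overlap in Ly6Clo and 31.5% in Ly6Chi. These levels rest on 7 and 15 counts in Ly6Clo with IL-21, 4 and 9 in Ly6Clo without it, 4 and 4 in Ly6Chi with IL-21, and 5 and 8 in Ly6Chi without it. In a fit with no filter on low counts the log2 fold change with IL-21 was 0.84 ± 0.59 in Ly6Clo and -0.58 ± 0.71 in Ly6Chi (SE, n = 2 each). The difference between them was 1.42 ± 0.92, and none of the 3 passed in edgeR (adjusted p of 0.9999 or above). The summed fibroblast markers were likewise higher with IL-21 in Ly6Clo and, with overlap, lower in Ly6Chi, and their values are given with the difference of the IL-21 responses.

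Maf, on chromosome 8 at 115682942 to 115707794 (minus strand), encodes c-MAF, which restrains macrophage proliferation and drives Il10. Ly6Clo macrophages had 576 and 641 CPM with IL-21, against 489.9 and 621 CPM without IL-21. Ly6Chi macrophages had 896 and 899 CPM with IL-21, against 898 and 1018 CPM without it. All 4 Ly6Clo libraries were below all 4 Ly6Chi libraries, which held for 1 of the 8 factors tested, for 2.74% of all genes in that direction and for 5.38% in either. Averaged over stimulation, the Ly6Clo level was 0.629 times the Ly6Chi level, a log2 fold change of -0.67 ± 0.15 (SE, n = 4 each, edgeR adjusted p = 0.147). The values by number were -0.76 and -0.60, and the 4 same-number differences ran from -0.87 to -0.49.

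Within stimulation, Ly6Clo over Ly6Chi for Maf was -0.56 ± 0.22 with IL-21 and -0.78 ± 0.22 without it (SE, n = 2 each, edgeR adjusted p = 0.913 and 0.929). The averaged difference passed with no filter on low counts (-0.65, edgeR adjusted p = 0.0364), as did those of Cebpb, Adgre1, Lpl, Atp6v0d2 and Gas6. For Maf the adjusted p ranged from 0.000402 to 0.483 over 15 alternative settings, with 2 of 15 under 0.05. The replicate block gave -0.67 ± 0.11 averaged (edgeR adjusted p = 0.000402) and -0.78 ± 0.15 without IL-21 (edgeR adjusted p = 0.00945). For IL-21 the averaged log2 fold change of Maf was 0.02 ± 0.15, with groups that overlapped in both subsets. Relative to Spi1 in the same library, Maf was ordered the same way. The ratio of Maf to Spi1 counts was 1.2 and 1.29 in Ly6Clo with IL-21 and 1.22 and 1.58 in Ly6Clo without it, against 1.9 and 1.72 in Ly6Chi with IL-21 and 1.99 and 1.84 in Ly6Chi without it. All 4 Ly6Clo ratios were below all 4 Ly6Chi ratios, and this ratio too was chosen after its values were seen.

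The summed level of the neutrophil list was lower in Ly6Clo than in Ly6Chi, as were the mean levels of Maf and Cebpb. It summed to 796 to 1215 CPM in Ly6Clo with IL-21 and 619 to 1241 CPM in Ly6Clo without it, against 1653 to 2304 CPM in Ly6Chi with IL-21 and 1365 to 2120 CPM in Ly6Chi without it. Of its 8 genes, 2 to 4 had counts in a group, Mmp8 held 2826 and S100a8 195 of its counts, and Ly6g, Retnlg and Ngp were at 0 in all 8 libraries. Unscaled Mmp8 counts were 290, 281, 288 and 245 in Ly6Clo, against 572, 318, 495 and 337 in Ly6Chi. Those of S100a8 overlapped, at 14, 42, 11 and 35 in Ly6Clo against 37, 15, 21 and 20 in Ly6Chi. The part of neutrophil RNA in the Cebpb, Cebpa and Maf differences was not tested beyond these values, and neither was that of the Ly6Chi monocyte markers, which differ by the sort itself.

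Mef2c, on chromosome 13 at 83504034 to 83667080 (plus strand), encodes a MADS-box factor that favours monocytes over granulocytes in mouse progenitors and is also active in muscle. Its level in Ly6Clo macrophages was 56.0 and 32.0 CPM with IL-21, against 58.1 and 48.3 CPM without IL-21. Its level in Ly6Chi macrophages was 22.6 and 24.8 CPM with IL-21, against 65.6 and 72.5 CPM without it. Ly6Chi with IL-21 was the lowest group and Ly6Chi without it the highest, neither overlapping with any other group. Both Ly6Clo groups overlapped between them, and the share of all genes with such an order was not counted. The levels rest on few counts, 6 and 5 in Ly6Chi with IL-21 against 16 and 19 in Ly6Chi without it.

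In Ly6Chi the fitted log2 fold change of Mef2c with IL-21 was -1.53 ± 0.46 (SE, n = 2 each, edgeR adjusted p = 1). The values by number were -1.52 and -1.53, and their closeness rests on the few counts given above. In Ly6Clo the log2 fold change was -0.31 ± 0.39 (SE, n = 2 each, edgeR adjusted p = 0.9999). Averaged over the subsets it was -0.92 ± 0.31 (SE, n = 4 each, edgeR adjusted p = 0.700), with 4 of 4 same-number differences below 0, from -1.53 to -0.05. The difference between the subsets' IL-21 responses was 1.22 ± 0.62 (edgeR adjusted p = 1), so a difference in response was not shown. Ly6Clo over Ly6Chi for Mef2c was 0.82 ± 0.49 with IL-21 and -0.40 ± 0.38 without it, groups that did not overlap in either setting and that were ordered oppositely.

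The summed level of dendritic cell markers was lower with IL-21 in both subsets, as was the mean level of Mef2c. The list of 7 summed to 7.99 to 24.6 CPM in Ly6Clo with IL-21, against 29.1 to 87.8 CPM in Ly6Clo without it, and to 0 to 4.97 CPM in Ly6Chi with IL-21, against 20.5 to 41.9 CPM in Ly6Chi without it. Of these 7, Ccr7 held 48 and Xcr1 16 counts over all libraries, Zbtb46 7 and Flt3 5, and Clec9a, Cd209a and Siglech were at 0 in all 8. Library 2 of Ly6Clo without IL-21 held 29 of the Ccr7 counts. Zbtb46 was not lower with IL-21 in Ly6Clo, at 2 and 2 counts against 1 and 2 without it. The sums rest on 2 to 10 counts in Ly6Clo with IL-21 and 7 to 40 without it. In Ly6Chi they rest on 0 to 1 counts with IL-21 and 5 to 11 without it. The part of dendritic cell RNA in the Mef2c or Irf8 values was not tested. Cardiomyocyte markers, which bear on a factor also used in muscle, are given with the difference of the IL-21 responses.

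Mitf, on chromosome 6 at 97807052 to 98021349 (plus strand), encodes a basic helix-loop-helix factor of the MiT/TFE family, known for lysosomal genes and for osteoclasts. In Ly6Clo cells the libraries had 152 and 148 CPM with IL-21, against 108 and 121 CPM without IL-21. In Ly6Chi cells the libraries had 117 and 154 CPM with IL-21, against 164 and 118 CPM without it. Groups with and without IL-21 did not overlap in Ly6Clo and overlapped in Ly6Chi. The log2 fold change was 0.38 ± 0.28 in Ly6Clo, with 0.49 and 0.29 by number, and -0.07 ± 0.30 in Ly6Chi (SE, n = 2 each), and neither passed in edgeR (adjusted p = 0.9999 and 1). Between the subsets the averaged value was -0.06 ± 0.21.

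Nr1h3, on chromosome 2 at 91184061 to 91202834 (minus strand), encodes LXRalpha, an oxysterol receptor that drives cholesterol efflux, and lies 68.3 kb from Spi1. In Ly6Clo macrophages it had 32.0 and 96.1 CPM with IL-21, against 24.9 and 70.2 CPM without IL-21. In Ly6Chi macrophages it had 64.0 and 59.6 CPM with IL-21, against 90.2 and 72.5 CPM without it. In Ly6Clo the library numbered 2 was the higher one in both groups, so the spread between numbers exceeded that between stimulations. Ly6Clo over Ly6Chi, averaged over stimulation, was -0.25 ± 0.36 (SE, n = 4 each), with -1.41 among libraries numbered 1 and 0.32 among those numbered 2. The sign of the subset difference thus differed between the numbers, and the IL-21 value averaged over the subsets was 0.00 ± 0.34.

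The difference between the subsets' IL-21 responses, Ly6Clo minus Ly6Chi, was above 0 in all 8 factors tested, from 0.22 ± 0.30 for Maf to 1.22 ± 0.62 for Mef2c. The median was 0.42, against 0.01 over all genes tested. Among the 37 related transcription factors tested, described below, 16 were above 0 and the median was -0.06. By number the sign was the same in both for 6 of 8. Irf8 was at -0.18 among libraries numbered 1, and Mitf at -0.09 among those numbered 2. In edgeR 0 of 8 passed (0% of all genes) and 0 of 8 had an unadjusted p under 0.05 (1.75% of all genes), and DESeq2 and limma-voom called 0 members, so no factor was shown to respond differently in the 2 subsets. In Ly6Chi the groups with and without IL-21 did not overlap for 3 of 8 factors, all with the lower levels under IL-21 (Cebpa, Mef2c and Nr1h3), where 31.5% of all genes did not overlap and 15.6% lay lower. In Ly6Clo they did not overlap for 4 of 8, all with the higher levels under IL-21 (Spi1, Cebpb, Irf8 and Mitf), where 29.5% did not overlap and 15% lay higher.

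Summed fibroblast and cardiomyocyte markers were higher with IL-21 in Ly6Clo, while in Ly6Chi their groups with and without IL-21 overlapped. The 6 fibroblast markers summed to 112 to 136 CPM in Ly6Clo with IL-21, against 20.8 to 32.9 CPM in Ly6Clo without it, and to 15.1 to 74.5 CPM in Ly6Chi with IL-21, against 69.7 to 160 CPM in Ly6Chi without it. In Ly6Clo the groups with and without IL-21 did not overlap, in Ly6Chi they did, and 5 to 6 of the markers had counts in a group. The 6 cardiomyocyte markers, of which 2 to 6 had counts in a group, summed to 17.3 to 79.9 CPM in Ly6Clo with IL-21, against 4.15 to 4.39 CPM in Ly6Clo without it, and to 0 to 19.9 CPM in Ly6Chi with IL-21, against 4.1 to 57.2 CPM in Ly6Chi without it. These sums rest on 4 to 55 fibroblast and 0 to 20 cardiomyocyte counts per library. The 4 endothelial markers, with Tie1 at 0 in all libraries, overlapped between the groups with and without IL-21 in both subsets. The part of fibroblast or cardiomyocyte RNA in the values of Klf4, Mef2c and the other factors was not tested.

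**Figure D4:**
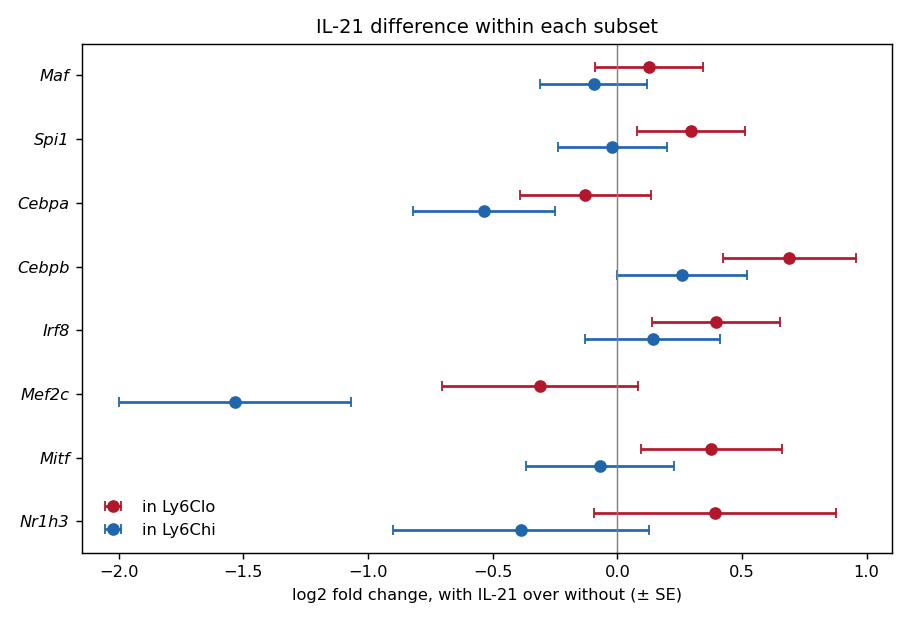
Log2 fold change with IL-21 over without it in Ly6Clo (upper point of each pair) and Ly6Chi (lower point) for the 8 factors tested, with edgeR's SE as bars (n = 2 libraries each). The Ly6Clo estimate lies above the Ly6Chi estimate for all 8, and the bars overlap for 7 of 8, with Mef2c the exception.

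Of 48 related transcription factors, 37 were tested and 0 passed in either averaged comparison. Their median log2 fold change was 0.03 with IL-21 and -0.14 in Ly6Clo over Ly6Chi, against -0.01 and 0.00 over all genes tested. Junb, an AP-1 subunit, averaged 287 ± 46.9 CPM with IL-21 and 206 ± 41.1 CPM without it (SD, n = 4 each), and its log2 difference of 0.49 ± 0.17 did not pass. Zeb2, a zinc finger repressor that keeps tissue macrophage identity in mice, averaged 494 ± 75.0 CPM in Ly6Clo and 669.8 ± 63.8 CPM in Ly6Chi, without overlap, with a log2 fold change of -0.44 ± 0.16 (edgeR adjusted p = 0.530). Ets2, an ETS factor, was at -0.81 ± 0.32 in the same comparison and did not pass.

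Genes linked to PU.1 and C/EBP (20 of 22 tested, 0 called in both averaged comparisons) had a median of 0.04 with IL-21 and -0.23 in Ly6Clo over Ly6Chi, where 3 of 20 were above 0. Adgre1, which encodes the macrophage antigen F4/80, averaged 623 ± 89 CPM in Ly6Clo and 1028 ± 166 CPM in Ly6Chi without overlap, a log2 fold change of -0.72 ± 0.17 (edgeR adjusted p = 0.147, and 0.000228 with the replicate block). Ptprc, which encodes the leukocyte antigen CD45, was at -0.62 ± 0.16 between the subsets (edgeR adjusted p = 0.203, and 0.00271 with the block) and at 0.23 ± 0.16 with IL-21. Btk, a kinase of antigen and Toll-like receptor signalling, was at 0.54 ± 0.20 with IL-21 (edgeR adjusted p = 0.781).

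LXR target genes (9 of 15 tested, 0 called) had a median of 0.09 with IL-21 and 0.12 between the subsets. Apoe, which carries cholesterol out of macrophages, averaged 1673 ± 352 CPM in Ly6Clo and 1166 ± 96.9 CPM in Ly6Chi without overlap, with a log2 fold change of 0.52 ± 0.18 (edgeR adjusted p = 0.456, and 0.00493 with the block). Lpl, lipoprotein lipase, was at 0.60 ± 0.19 in that comparison and at -0.62 ± 0.19 with IL-21, and Lpcat3, which remodels membrane phospholipids, at 0.61 ± 0.33 with IL-21, none of them passing. With the block Lpl passed in both comparisons (edgeR adjusted p = 0.000748 between the subsets and 0.000557 with IL-21). MiT/TFE-linked lysosome and osteoclast genes (12 of 13 tested, 0 called) had a median of -0.07 with IL-21 and 0.16 between the subsets, where 10 of 12 were above 0. Atp6v0d2, a proton pump subunit, was at 1.65 ± 0.40 in Ly6Clo over Ly6Chi (edgeR adjusted p = 0.203, and 4.9e-05 with the block) and at -0.89 ± 0.41 with IL-21. Ctsd, a lysosomal protease, was at 0.42 ± 0.15 between the subsets, and Mcoln1, a lysosomal calcium channel, at 0.50 ± 0.25 with IL-21, neither passing, though Ctsd passed with the block (edgeR adjusted p = 0.0165).

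MAF-linked genes (8 of 12 tested, 0 called) had a median of 0.34 with IL-21, with 7 of 8 above 0, and 0.51 in Ly6Clo over Ly6Chi, with 6 of 8 above 0. Maf itself lay at -0.67 in the subset comparison. Gas6, a bridging ligand for the uptake of dead cells, averaged 217 ± 53.4 CPM in Ly6Clo and 89.2 ± 30.9 CPM in Ly6Chi without overlap, with a log2 fold change of 1.25 ± 0.27 (edgeR adjusted p = 0.103, and 0.00231 with the block). F13a1, a coagulation factor subunit, was at 1.14 ± 0.44 with IL-21 (edgeR adjusted p = 0.833, and 0.0438 with the block) and is also in the Ly6Chi monocyte list. The complement gene C1qa was at 0.60 ± 0.15 between the subsets and C1qb at 0.44 ± 0.16 with IL-21, and neither passed, though C1qa passed with the block (edgeR adjusted p = 0.00201). IRF8-linked genes (4 of 8 tested, 0 called) had a median of -0.08 with IL-21 and -0.26 between the subsets. Il18 was at -0.59 ± 0.34 and Cybb, the NADPH oxidase subunit, at -0.74 ± 0.58 in Ly6Clo over Ly6Chi, while Cst3 was at -0.22 ± 0.15 with IL-21.

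Genes linked to C/EBPbeta and KLF4 held the only calls among the 7 lists. The lists were chosen with earlier results of these data known, so which list holds a call is a description only. Of 12 genes, 5 were tested. With IL-21, 1 was called higher (Arg1, where 0.171% of all genes were called in either direction). In Ly6Clo, 1 was called lower than in Ly6Chi (Chil3, where 0.19% of all genes were called). The medians were 0.43 and -0.91, against -0.01 and 0.00 over all genes tested. Arg1, arginase, rose with IL-21 to 1780 ± 59.8 CPM in Ly6Chi, against 502 ± 131 CPM without it, and to 2192 ± 228 CPM in Ly6Clo, against 607 ± 13.3 CPM without it (SD, n = 2 each). Averaged over the subsets, its log2 fold change was 1.84 ± 0.16 (edgeR adjusted p = 7.2e-05), in libraries in which Cebpb was at 0.47 ± 0.19 and Klf4, in the fit with no filter, at 0.13 ± 0.47. The averaged call held in 15 of 15 alternatives (highest adjusted p = 0.00099). In Ly6Chi the log2 fold change was 1.82, and the call was lost without library 1 with IL-21 (1.80, edgeR adjusted p = 0.0535) or without library 1 without IL-21 (1.60, 0.174). In Ly6Clo it was 1.85, and the call was lost without library 2 without IL-21 (1.89, edgeR adjusted p = 0.078) and in a fit of the 2 groups alone (1.85, 0.0743).

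Chil3, a chitinase-like protein, had 44.0 and 24.6 CPM in Ly6Clo with IL-21 and 4.15 and 24.1 CPM in Ly6Clo without it, against 124 and 79.4 CPM in Ly6Chi with IL-21 and 148 and 72.5 CPM in Ly6Chi without it. It fell by 2.16 ± 0.38 on the log2 scale in Ly6Clo relative to Ly6Chi (SE, n = 4 each, edgeR adjusted p = 0.0360) and is itself a Ly6Chi monocyte marker. That call was lost with limma-voom (adjusted p = 0.158) and in edgeR without Ly6Chi with IL-21 library 1 (0.221) or 2 (0.055), Ly6Chi without IL-21 library 1 (0.126), Ly6Clo with IL-21 library 2 (0.0857) or Ly6Clo without IL-21 library 1 (0.0589). Over 14 alternatives its log2 fold change ran from -3.11, without Ly6Clo without IL-21 library 2, to -1.86, and 8 of 14 passed. Saa3, an acute-phase protein gene, was at 1.91 ± 0.47 with IL-21 without overlap of the groups (edgeR adjusted p = 0.560). Of 15 alternatives 1 passed, that without Ly6Chi with IL-21 library 2 (2.23, edgeR adjusted p = 0.00168), and over all 15 alternatives it ran from 1.30, without library 1 of that group, to 2.24. Il1b was at -2.03 ± 0.84 between the subsets, with -4.44 among libraries numbered 1 and 0.09 among those numbered 2.

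**Figure D5:**
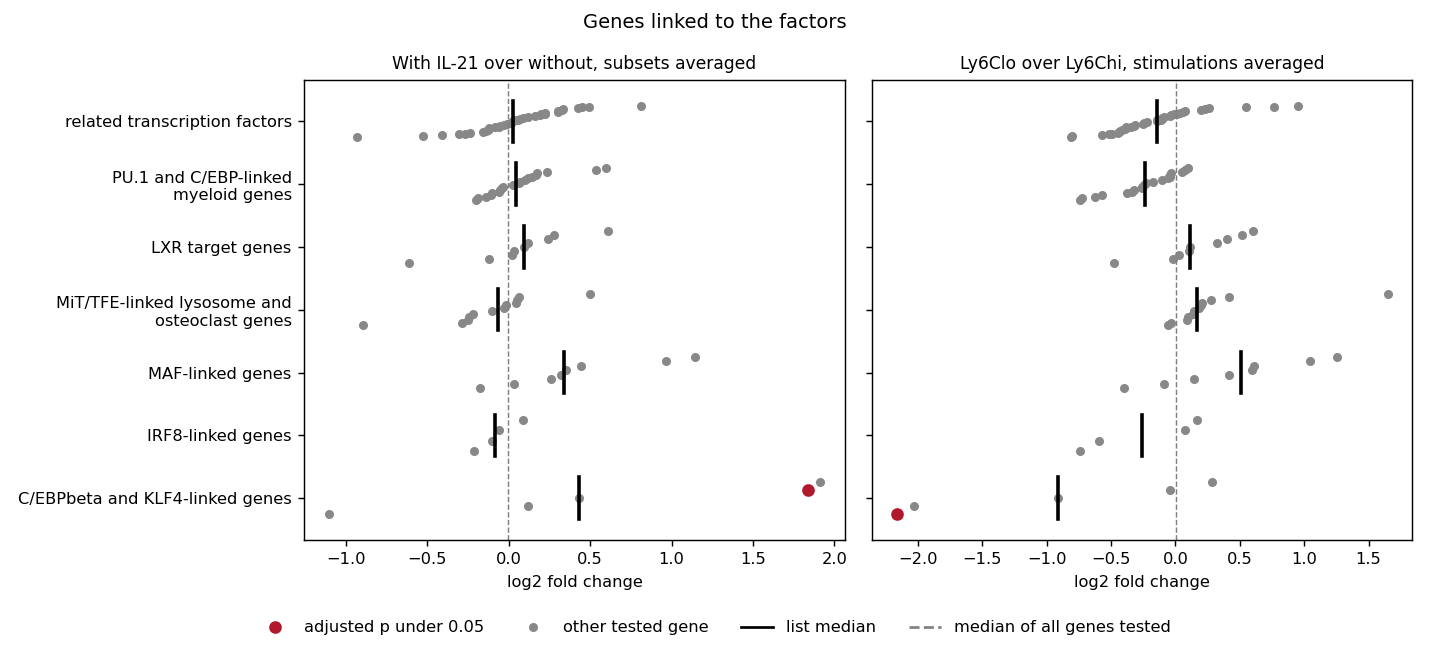
Log2 fold change of each tested gene in 7 lists linked to the factors, with IL-21 over without it (left) and Ly6Clo over Ly6Chi (right), averaged. Points are genes, black bars list medians, and the dashed line is the median over all 5256 genes tested. The only genes at an adjusted p under 0.05, in red, are Arg1 (1.84, left) and Chil3 (-2.16, right).

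For the 4 factors with a mean of 50 counts or more in a library, genes with the most similar pattern over the 8 libraries were found among 1148 candidates by the root mean square difference of centred log2 CPM. Maf was nearest to Creb5 (0.14), Oas3 (0.147) and Ly6e (0.148), against a median of 0.429 over all candidates. Spi1 was nearest to Clta (0.085), Alox5ap (0.094) and Aftph (0.1), with a median of 0.284. Cebpa was nearest to Emp1 (0.141), Cd36 (0.183) and Epb41l2 (0.19), with a median of 0.444. Cebpb was nearest to Ist1 (0.213), Clec4a1 (0.225) and Ifi209 (0.229), with a median of 0.529. The 8 libraries share 4 groups and 2 numbers, and the likeness is a description.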

How the data were processed

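The authors deposited 1 expected count, an estimate that can be fractional, for each Ensembl gene and library, and call it raw, per the file headers. Of the values above 0, 53.3 to 59.7% were not whole (tolerance 0.001). The QuantSeq 3′ FWD kit, its module for unique molecular identifiers and 75-base single-end reads are given per the labels' protocols, and the submitters' processing notes name mm10 and DESeq2 with no version. Which aligner, counter and annotation were used, and whether identifiers and strand were, is not given in the sources used here. Series text names receptor-deficient mice, which were not analysed here.

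Counts were rounded to whole numbers, because the design assumed counts. Of 53342 identifiers, 53237 matched GENCODE M21 (GRCm38), which gave symbols and positions. The filter filterByExpr (minimum count 10, total 15) kept 5256 genes. TMM scaling and one edgeR 4.0.16 quasi-likelihood fit (robust, limma 3.58.1, R 4.3.3) of 4 group means over 8 libraries gave 4 residual degrees of freedom, 10.6 prior ones at the median, and 0.201 as the biological coefficient of variation. P-values were adjusted over all 5256 genes by Benjamini and Hochberg's method, and a call is an adjusted value under 0.05. SE is the size of the log2 fold change divided by the square root of F. CPM were taken on TMM-scaled totals over kept genes, and differences within a number use log2(CPM + 0.5). The labels do not say what a replicate number marks, but deviations of same-numbered libraries from their group means correlated at 0.326 to 0.564 in all 6 pairs of groups, and 431 of 5256 genes (8.2%) differed between the numbers at an adjusted p under 0.05. The main fit has no term for the number, so its p-values do not use this pairing. Same-number differences and an added fit with the number as a block do, on the data and not on the labels. The block fit is given beside each result whose call it changes.

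Alternatives were RLE size factors, DESeq2 1.42.0, limma-voom, no filter, a mean count of 20, unrounded values, a replicate block, only the groups compared, each library left out and each number alone. The text names all 9 members, list genes called in any comparison, and the 2 tested genes of each list with the smallest p in each averaged comparison, except for some that are not reported here. For members with a mean count of 50, it also names the 3 nearest genes. The members and lists were chosen with earlier results of these data known. Precision is limited by depth: counts cover counting error only, and amplified copies may be included.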

Additional observations from a re-analysis of the deposited data

How the results depend on the processing

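Over 16 settings, 106 of 109 alternative counts of members called equalled the main count of 0. For Ly6Clo over Ly6Chi averaged over stimulation, 2 members were called with no filter on low counts, and the members were Maf and Cebpb. With the replicate number as a term (block) of the fit, 2 members, again Maf and Cebpb, were called for the averaged subset comparison and 2 without IL-21, and the block changed no other member's call. The cause was not tested. Of the list genes named as not passing, Adgre1, Lpl, Atp6v0d2, F13a1 and Gas6 passed with no filter and with the block, and Ptprc, Apoe, Ctsd and C1qa with the block. Over all genes the lowest counts over all settings were 5 against 9 in the averaged IL-21 comparison, 0 against 1 in Ly6Chi, 0 against 7 in Ly6Clo, 3 against 10 for the averaged subset comparison, 0 against 2 without IL-21 and 0 against 1 with it. For the difference of the IL-21 responses the block and the fit with no filter called 1 against 0.

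Log2 fold changes of up to 0.78 in size changed sign in 36 of 1274 refits of members and named list genes, and 17 of 112 values of members from one number alone had the other sign. Mef2c and Nr1h3 could not be tested at a mean count of 20, nor Mef2c in Ly6Clo over Ly6Chi with IL-21 in a fit of those groups alone. Limma-voom gave -0.0356 for Nr1h3 with IL-21 averaged (unrounded values -0.0084), -0.0251 for Nr1h3 in Ly6Clo over Ly6Chi with IL-21 and -0.0048 for Irf8 in the averaged subset comparison, and no filter gave 0.0078 for Spi1 in Ly6Clo over Ly6Chi with IL-21. Leaving out 1 library at a time, the averaged IL-21 value ran from -0.54 to 0.53 for Nr1h3 and -0.059 to 0.12 for Maf. In Ly6Chi it ran from -0.14 to 0.14 for Spi1, -0.0183 to 0.27 for Irf8 and -0.29 to 0.20 for Mitf. In Ly6Clo it ran from -0.70 to 0.11 for Mef2c, -0.68 to 1.45 for Nr1h3, -0.0184 to 0.33 for Maf and -0.40 to 0.19 for Cebpa. The difference of the responses ran from -0.30 to 1.84 for Nr1h3. Ly6Clo over Ly6Chi ran from -0.072 to 0.10 for Irf8 and -0.18 to 0.0708 for Mitf averaged. With IL-21 it ran from -0.94 to 0.63 for Nr1h3, -0.0941 to 0.0448 for Spi1, -0.0381 to 0.35 for Mitf and -0.0069 to 0.30 for Irf8. Without IL-21 it ran from -0.29 to 0.0636 for Irf8 and -0.036 to 0.55 for Cebpa. A group with 1 library left was assumed to vary like the others.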

Other observations

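In the fit with the replicate number as a term, libraries numbered 2 minus those numbered 1 gave 0.577 on the log2 scale for Nr1h3, 0.295 for Cebpb, 0.168 for Maf and 0.111 for Spi1. The values were -0.121 for Irf8, -0.227 for Mef2c, 0.02 for Cebpa and 0.001 for Mitf. None of the 8 passed (lowest edgeR adjusted p = 0.203, for Cebpb), and what the number stands for is not in the labels.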
